A study of Mus musculus with 4 samples.

Results

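The antioxidant and NRF2 target genes examined here were 10 genes chosen by name, out of 32285 genes in the count matrices: *Nfe2l2*, *Keap1*, *Nqo1*, *Hmox1*, *Gclc*, *Gclm*, *Txnrd1*, *Srxn1*, *Gpx3* and *Gsr*. The choice was made with earlier results of these data known. All 10 symbols were found once each. They were followed through single-cell RNA-Seq of whole kidneys from male C3H mice, either WT or Sweet Pee (SP), a line with a missense mutation in *Slc5a2*, the gene of the SGLT2 glucose cotransporter of the proximal tubule. Mice of both genotypes started a high-fat diet (HFD, 60% of calories from fat) or stayed on normal diet (ND) at 10 weeks of age, and kidneys were taken 8 weeks later, at 18 weeks. The mutation is carried by every cell of SP animals. There was 1 library for each genotype on each diet (WT-ND, WT-HFD and the same for SP), and the number of mice behind a library was not given in the sources used here. A difference between conditions is therefore a difference between 2 libraries, without a replicate check, and no p-value is given. The intervals below are exact 95% intervals that cover counting error only.

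All 10 are protein-coding genes (GENCODE release M21, GRCm38). *Nfe2l2* lies at chr2:75675513-75704641 and *Keap1* at chr9:21229730-21239361, both on the minus strand. *Nqo1* (chr8:107388225-107403206, minus strand), *Hmox1* (chr8:75093621-75100589) and *Gsr* (chr8:33652523-33698163) share a chromosome, *Gclc* is at chr9:77754535-77794485, *Gclm* at chr3:122245557-122270732, *Txnrd1* at chr10:82833951-82897712, *Srxn1* at chr2:152105516-152111376 and *Gpx3* at chr11:54902453-54910377.

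NRF2, the protein of *Nfe2l2*, is a transcription factor that KEAP1 holds in the cytoplasm and marks for degradation. When electrophiles or oxidants modify KEAP1, NRF2 accumulates, pairs with a small MAF protein and binds antioxidant response elements near genes for glutathione synthesis, thioredoxin recycling, quinone reduction and heme breakdown. The kidney is rich in mitochondria and handles many oxidants, and its proximal tubule is a main source of the glutathione peroxidase of plasma, encoded by *Gpx3*.

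Promoter windows of 300 bases (250 before to 50 after the annotated start, RefSeq, GRCm38.p6) were on hand for 7 of the 10 genes. *Hmox1*, *Gclc* and *Gsr* had no entry. The core of the antioxidant response element was searched on both strands as TGACNNNGC and as TGAGNNNGC. At least 1 core lay in 4 of the 9 member windows, against 27.8% of all 32851 windows. The upstream matches are shown because they mark where these genes carry the letters NRF2 is known to bind. Each runs 5′ to 3′ on the strand of the gene, with the core in capitals.

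*Nfe2l2*, chr2:75704875-75704913, minus strand, core from 240 to 232 bases before the start: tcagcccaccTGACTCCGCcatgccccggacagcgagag
*Srxn1*, chr2:152105346-152105394, plus strand, core on the opposite strand from 158 to 150 bases before the start: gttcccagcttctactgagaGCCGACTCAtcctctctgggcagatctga
*Srxn1*, chr2:152105459-152105507, plus strand, core from 45 to 37 bases before the start: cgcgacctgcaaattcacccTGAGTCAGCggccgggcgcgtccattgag
*Gclm*, chr3:122245403-122245451, plus strand, core on the opposite strand from 134 to 126 bases before the start: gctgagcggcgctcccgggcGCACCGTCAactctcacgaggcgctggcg
*Txnrd1*, chr10:82859094-82859142, plus strand, core on the opposite strand from 92 to 84 bases before the second of its 3 starts: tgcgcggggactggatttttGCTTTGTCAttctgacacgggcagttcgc

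*Srxn1* also held a core just after its start. The windows of *Nqo1*, *Keap1*, *Gpx3* and the other 2 starts of *Txnrd1* held none, which says only that these letters are not in those 300 bases. A match is a description of sequence and not evidence of binding.

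The 4 libraries held between 90728590 and 115117649 UMIs (unique molecular identifiers, counted transcript molecules), and 32280 cells were kept after filtering, 6389 to 9924 per library. Barcodes shared by a pair of libraries numbered 54 to 77, at most 0.522% of the smaller library. Cells fell into 31 clusters, of which 8, with 5885 cells, were left unnamed. The largest of them, with 3700 cells (1780 and 1087 of WT on ND and HFD, 438 and 395 of SP), scored 1.06 for proximal tubule markers (mean log2 over all other cells, where a name needs at least 1), but its median depth was 1127 UMIs and none of those markers was among its 10 leading genes, which hemoglobin genes headed. It was kept out of the proximal tubule-like cells, and the ratios below were also computed with it. The text below uses 12 cell classes with at least 50 cells in each library. Levels are pooled counts scaled to a total of 1000000 UMIs (CPM) of a class in a library and are compared between classes or libraries for 1 gene, never between genes. Proximal tubule-like cells numbered 1943 (ND) and 1072 (HFD) in WT and 930 (ND) and 623 (HFD) in SP. All 12 proximal tubule markers were detected there. *Slc5a2* was at 322 and 261 CPM in the WT-ND and WT-HFD libraries and at 57.0 and 99.6 CPM in SP-ND and SP-HFD, so its level followed the genotype labels.

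The 2 regulators stood low in the proximal tubule. By point value *Nfe2l2* was lower there than in the other 11 classes in each of the 4 libraries, though in SP-ND it was level with T or NK cells (31.1 and 31.4 CPM). It averaged 26.7 CPM in the proximal tubule (range over the 4 libraries 23.1 to 31.1), against 168 CPM in intercalated cells, the acid-base handling cells of the collecting duct (122 to 193 CPM). Macrophages or dendritic cells (129 to 168 CPM), principal cells (109 to 153 CPM) and endothelial cells (113 to 141 CPM) came next for *Nfe2l2*, and neighbours in this order overlapped in their ranges. Proximal tubule-like cells lay below thick ascending limb, distal convoluted tubule, connecting tubule, principal, intercalated, endothelial, thin limb and macrophage or dendritic cells in 4 of 4 libraries, by 1.36 to 2.99 on the log2 scale, with every interval below 0. Against mural cells, T or NK cells and podocytes the interval lay below 0 in only 1, 2 and 3 of 4 libraries. The proximal tubule was therefore not separated from these classes in every library. *Keap1* averaged 17.9 CPM in the proximal tubule (15.0 to 19.4), level with T or NK cells (18.0 CPM, 4.08 to 26.5) and with a range that overlapped that of macrophages or dendritic cells (13.7 to 23.0 CPM). Its highest level was in endothelial cells (51.8 to 60.3 CPM), a range that did not meet that of podocytes, which came next (38.7 to 41.1 CPM).

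The rate-limiting enzyme of glutathione synthesis is a pair of subunits. Among the 12 classes, the 2 genes were highest in different parts of the nephron. *Gclm*, the modifier subunit, averaged 300.3 CPM in the proximal tubule (232 to 383), above the next class, the thin limb (92.7 to 127 CPM), without overlap. In each of the 4 libraries its interval for proximal tubule over every one of the other 11 classes lay above 0, and the log2 ratio ran from 0.87 to 3.27. *Gclc*, the catalytic subunit, was highest in connecting tubule (166 to 242 CPM), intercalated cells (120 to 231 CPM) and distal convoluted tubule (151 to 176 CPM), whose ranges overlapped. The proximal tubule was below these 3 classes for *Gclc* in 4 of 4 libraries, by 0.62 to 1.49 on the log2 scale. Single clusters gave another picture. With libraries pooled, both genes were highest in a proximal tubule cluster named S3, at 427 CPM of *Gclc* and 862 CPM of *Gclm*. This cluster held only 82 cells, 53 of them from SP-HFD. By the mean over libraries macrophages or dendritic cells were lowest for both subunits (22.5 CPM of *Gclc* and 44.2 CPM of *Gclm*), with ranges that overlapped those of the next class.

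The recycling enzymes divided in a like manner. *Gsr*, glutathione reductase, was highest in the proximal tubule (105 to 132 CPM) and next in the thick ascending limb (76.0 to 101 CPM), and these ranges did not overlap. *Srxn1*, sulfiredoxin, which restores over-oxidised peroxiredoxins, was highest in intercalated cells (48.0 to 59.2 CPM) and connecting tubule (38.6 to 67.2 CPM), and in the proximal tubule lay between 16.8 and 18.9 CPM. Its profile over the 12 classes was among the 3 most like that of *Gclc* of 6133 genes compared (Pearson r of log2(CPM + 1) 0.94), beside *Vdr*, the vitamin D receptor (0.94), and *Wdr72* (0.90). *Txnrd1*, the cytosolic thioredoxin reductase, was spread broadly: it averaged 78.2 CPM in the highest class, intercalated cells, and 34.8 CPM in the lowest, macrophages or dendritic cells.

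**Figure D1:**
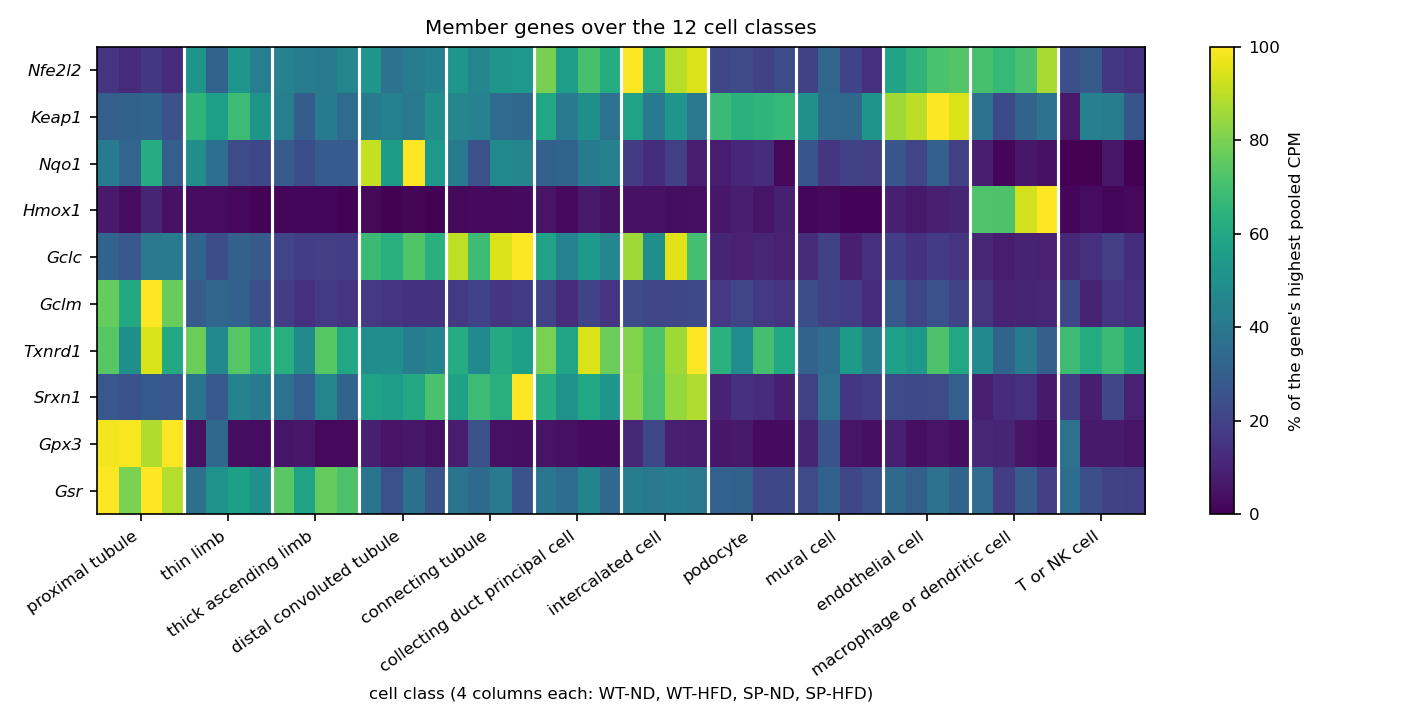
Pooled CPM of each member (rows) in the 12 cell classes, with 4 columns per class (WT on ND, WT on HFD, SP on ND, SP on HFD), each coloured as a percentage of that gene's highest value. *Gpx3*, *Gclm* and *Gsr* peak in the proximal tubule, *Hmox1* in macrophages or dendritic cells, *Nqo1* in the distal convoluted tubule, and *Gclc* and *Srxn1* from the distal convoluted tubule to the intercalated cells.

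*Hmox1*, heme oxygenase 1, which breaks down heme, stood high in 1 of the 12 classes. Macrophages or dendritic cells stood at 173 CPM on both diets in WT and at 224 (ND) and 240 (HFD) CPM in SP, and the next class, endothelial cells, reached 25.1 CPM at most. The monocyte class, too small for the 12, carried 101 to 443 CPM. With libraries pooled, monocytes were at 365 CPM, above macrophages or dendritic cells at 205 CPM. Neutrophils, also too few for the 12, were at 90.0 CPM. Among the 3 genes most like *Hmox1* were *Ciita*, the regulator of antigen presentation genes (r = 0.89), and *Ftl1*, the ferritin light chain (r = 0.89). *Nqo1*, which reduces quinones, was highest in the distal convoluted tubule (22.9 to 43.0 CPM) and next in the proximal tubule (12.9 to 26.5 CPM). The ranges overlapped, but within each of the 4 libraries the distal convoluted tubule was above, by 0.70 to 1.16 on the log2 scale. T or NK cells held a single *Nqo1* UMI over all 4 libraries, in SP-ND, and the 0 UMIs of the other 3 libraries allow up to 4.68 to 6.12 CPM.

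*Gpx3* averaged 7772 CPM in the proximal tubule, and the genes most like it over the classes included *Slc6a19*, a neutral amino acid transporter of that segment (r = 0.96). Its levels elsewhere moved with other proximal tubule RNA. The summed 12 proximal tubule markers reached 1.54% to 26.3% of their proximal tubule level in the other 11 classes, and *Gpx3* reached 2.41% to 38.0% of its own. In WT-ND T or NK cells, which should lack both, the markers stood at 23.8% and *Gpx3* at 38.0% (3012 CPM), against 472 to 590 CPM in T or NK cells of the other libraries. In WT-HFD, *Gpx3* stood at 2713 CPM in thin limb, 2098 in mural, 1992 in connecting tubule and 1753 in intercalated cells, each above its range in the other 3 libraries. In 9 classes the median over the 4 libraries of the *Gpx3* share was 1.09 to 1.48 times that of the markers, and its level there is not read as expression. In intercalated cells and the distal convoluted tubule it was above the markers in 4 of 4 libraries, at 1.80 to 5.16 and at 1.92 to 3.27 times their share. In SP-HFD intercalated cells, for example, *Gpx3* was at 8.07% and the markers at 1.56%, and in SP-ND distal convoluted tubule at 7.21% and 2.21%. *Gclm* was less tied to it: outside the proximal tubule it stood at 10.3% to 54.9% of its proximal tubule level, above the markers in all 44 combinations of class and library.

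**Figure D2:**
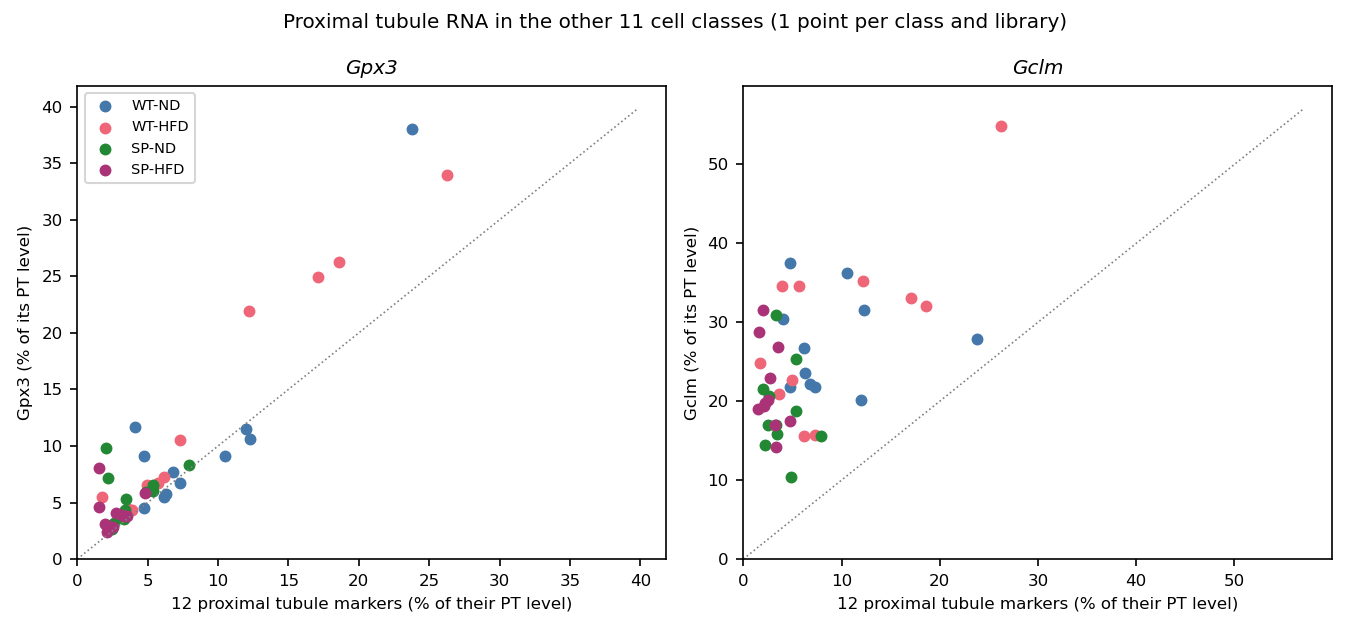
Level of *Gpx3* (left) and *Gclm* (right) in the other 11 cell classes as a percentage of their proximal tubule level (y axis) against the same for the 12 summed proximal tubule markers (x axis), 1 point per class and library. *Gpx3* climbs with the markers up to 38.0%, with the distal convoluted tubule and intercalated cells at 1.80 to 5.16 times the dotted line of equality and the other 9 classes nearer to it (median over the libraries 1.09 to 1.48 times), whereas *Gclm* lies above the line throughout.

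For the other members, the genes named from the 3 of most similar profile over the 12 classes had r of 0.81 to 0.97. They were *Nav1*, *Ptgs1* and *Trib1* for *Nfe2l2*, *Fam114a2*, *Eif4h* and *Rab11a* for *Keap1*, *Nr2f6*, *Tmem259* and *Abhd14b* for *Nqo1*, and *Aacs*, *Xpnpep1* and *Aldh3a2* for *Gclm*. Among them were *Clcn3* and *Baiap2* for *Txnrd1*, *S100a1*, *C77080* and *Gclc* for *Srxn1*, *Bpnt1* and *Phb2* for *Gsr*, and *BC024386* and *Guca2b*, next to *Slc6a19*, for *Gpx3*. *Synj1* was closest to *Hmox1* (r = 0.91). The 12 points share their libraries, so r is a description.

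Effects of diet were compared within each genotype, in proximal tubule-like cells first. On HFD, *Hmox1* was lower in both genotypes, and 5 further members (*Nfe2l2*, *Nqo1*, *Gclm*, *Txnrd1* and *Gsr*) were lower in both with intervals that left out 0. Over all 6520 genes tested (mean of at least 10 CPM over the 4 libraries), 15.7% had intervals below 0 in both genotypes, against these 6 of 10 members. The 2 contrasts use separate libraries, but the members were chosen with earlier results of these data known, so this comparison is a description.

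*Hmox1* stood at 17.4 (ND) and 8.14 (HFD) CPM in WT and at 24.4 (ND) and 11.9 (HFD) CPM in SP. Both HFD libraries were below both ND libraries. HFD over ND gave a log2 ratio of -1.10 in WT (-1.41 to -0.80) and -1.04 in SP (-1.38 to -0.71). Macrophage or dendritic cell markers, all 8 of which had UMIs in proximal tubule-like cells, summed to 13.5 (ND) and 52.8 (HFD) CPM in WT and to 45.2 (ND) and 44.7 (HFD) CPM in SP, at most 0.133% of their level in macrophages or dendritic cells. Were *Hmox1* and these markers carried alike, the *Hmox1* of macrophages or dendritic cells would give at most 0.269 CPM at that share. Monocytes are not part of this value, and the source of the *Hmox1* UMIs was not tested. T or NK cells held 2.85 to 7.58 CPM of *Hmox1*, the highest in WT-HFD, close to the 8.14 CPM of proximal tubule-like cells there. The lowest classes of WT-HFD were distal convoluted tubule (1.55 CPM) and thick ascending limb (2.82 CPM), and others were above 8.14, such as endothelial cells (16.8 CPM). The proximal tubule was above these lowest classes in 4 of 4 libraries, with intervals above 0. In cells thinned to 1000 UMIs, 1.44%, 0.84%, 1.94% and 1.45% of proximal tubule-like cells (WT on ND and HFD, then SP on ND and HFD) had an *Hmox1* UMI (15.3%, 9.98%, 27.1% and 13.5% unthinned, at median depths of 9227, 11078, 15524 and 12750 UMIs), and 0 to 2 T or NK cells of each library did (0% to 1.34%, with upper bounds of 1.66% to 4.76%), so the shares are not read as expression.

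*Nqo1* was at 17.5 (ND) and 14.1 (HFD) CPM in WT and at 26.5 (ND) and 12.9 (HFD) CPM in SP. SP-ND was the highest and SP-HFD the lowest library. The log2 ratio was -0.32 in WT (-0.57 to -0.07) and -1.03 in SP (-1.36 to -0.72), intervals that did not overlap, and the difference between the 2 diet ratios (-0.72) was not tested. *Txnrd1* was at 68.4 and 45.8 CPM in WT-ND and WT-HFD and at 87.0 and 55.5 CPM in SP-ND and SP-HFD. Its log2 ratio was -0.58 in WT (-0.71 to -0.44, just under 1.5-fold) and -0.65 in SP (-0.81 to -0.49). Both HFD libraries lay below both ND libraries for *Txnrd1*.

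*Gclm* was at 293 and 232 CPM in WT-ND and WT-HFD and at 383 and 294 CPM in SP-ND and SP-HFD, with log2 ratios of -0.34 (-0.40 to -0.28) and -0.38 (-0.45 to -0.31). The catalytic partner *Gclc* did not share this: 78.0, 65.8, 95.8 and 100.1 CPM in WT on ND and HFD and in SP on ND and HFD gave -0.25 in WT (-0.36 to -0.13) and 0.06 in SP (-0.06 to 0.19). *Gsr* was at 132, 105, 132 and 117 CPM in the same order, or -0.32 (-0.41 to -0.23) and -0.17 (-0.29 to -0.06). *Nfe2l2* was at 29.3, 23.1, 31.1 and 23.1 CPM, or -0.34 (-0.54 to -0.15) in WT and -0.43 (-0.68 to -0.18) in SP. This difference depended on which cells entered: in WT it was -0.02 in the S3-leaning clusters alone and -0.05 with an unnamed WT-HFD cluster included, and in SP it was 0.01 among cells under 30% mitochondrial UMIs.

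*Srxn1*, *Keap1* and *Gpx3* were not lower on HFD in both genotypes. *Srxn1* stayed between 16.8 and 18.9 CPM, and both diet intervals held 0. *Keap1* was at 18.4 and 18.7 CPM in WT and at 19.4 and 15.0 CPM in SP, so that it was lower on HFD in SP (-0.37, -0.69 to -0.06) and not in WT (0.02). *Gpx3* was at 7917, 7989, 7112 and 8070 CPM, higher on HFD by 0.01 (WT) and 0.18 (SP) on the log2 scale. The WT value changed sign in 8 of 15 alternative settings.

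By the limit of at least 1.5-fold with an interval that leaves out 0, 1 member was lower in WT-HFD than in WT-ND (*Hmox1*) and 0 higher, where 3.47% and 5.18% of all genes tested were lower and higher. In SP, 3 members were lower on HFD (*Nqo1*, *Hmox1* and *Txnrd1*) and 0 higher, where 6.06% and 6.67% of all genes were. The median log2 ratio of the 10 members was -0.32 in WT and -0.37 in SP, and that of all genes tested was 0.02 and 0.00. All 10 members passed the filter on low values. Under 10 of the 15 alternative settings the count in WT was 2, the added member being *Nfe2l2* (-0.65) in the S1-S2 cluster alone and *Txnrd1* (-0.69 to -0.59) in the other 9. Among these 9, the mean over cells had no interval and was counted by its ratio alone.

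**Figure D3:**
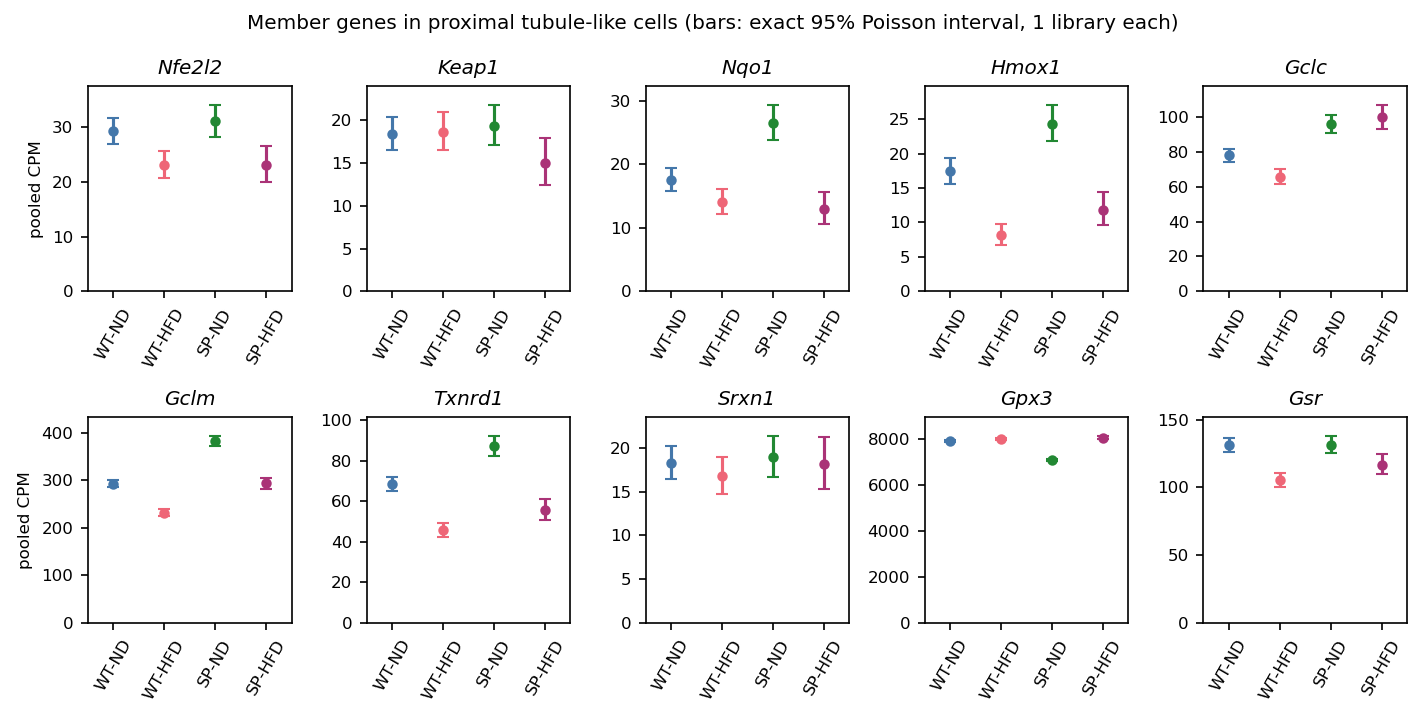
Pooled CPM (y axis, from 0) of each member in proximal tubule-like cells of the 4 libraries (x axis), with exact 95% Poisson intervals as bars. *Hmox1*, *Nqo1*, *Txnrd1* and *Nfe2l2* lie lower in both HFD libraries than in both ND libraries, and *Srxn1* lies between 16.8 and 18.9 CPM in all 4.

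The proximal tubule has early (S1-S2) and late (S3) segments. The proximal tubule-like cells formed an S1-S2 cluster, an S3 cluster of 82 cells, and a cluster of 2020 cells that the segment lists did not name, whose mean log2 marker score was 0.86 for S3 and 0.68 for S1-S2. The last is called S3-leaning here, and with the 82 cells it held 44.2% to 48.0% of proximal tubule-like cells per library. In the S1-S2 cluster *Hmox1* was at 13.8 (ND) and 8.80 (HFD) CPM in WT and at 18.1 (ND) and 10.5 (HFD) CPM in SP, and in the S3-leaning cluster at 20.6, 7.45, 30.4 and 12.2 CPM in the same order. *Nqo1* was at 14.5, 13.3, 20.4 and 10.7 CPM in S1-S2 and at 20.2, 14.9, 30.7 and 14.9 CPM in S3-leaning cells. For *Hmox1* the interval of the diet ratio left out 0 in both clusters and both genotypes. For *Nqo1* it did so in both clusters in SP and in the S3-leaning cluster in WT (-0.44, -0.79 to -0.10), but not in the S1-S2 cluster in WT (-0.12, -0.50 to 0.26). *Nfe2l2* was lower in the S1-S2 cluster in WT (-0.65, -0.92 to -0.37) and in both clusters in SP, and was at 25.3 (ND) and 24.5 (HFD) CPM in the S3-leaning cluster in WT (-0.05, -0.33 to 0.23). *Gclm* was higher in the S3-leaning than in the S1-S2 cluster in each library (336, 265, 466 and 352 against 244, 201, 284 and 217 CPM), and *Gpx3* lower (5597, 5851, 5543 and 5760 against 10524, 9916, 8874 and 10325 CPM).

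Other measures also differed between these cells. The median share of mitochondrial UMIs in proximal tubule-like cells was 34.1%, 30.3%, 38.0% and 33.9% in WT on ND and HFD and in SP on ND and HFD. It was lower in the HFD library of each genotype and higher in the SP library of each diet. Barcodes left out for 50% or more mitochondrial UMIs made up 32.7%, 33.2%, 49.8% and 42.1% of each library, in the same order. With CPM over non-mitochondrial UMIs, *Hmox1*, *Nqo1*, *Txnrd1*, *Gclm*, *Gsr* and *Nfe2l2* stayed lower on HFD in both genotypes. Genes raised by tissue dissociation (*Fos*, *Jun*, *Egr1*, *Atf3*, *Hspa1a* and *Hspa1b*, a list added after the values were seen) summed to 108, 123, 188 and 141 CPM, all 6 with UMIs in each library. The part of these genes, and of the barcodes left out, in the diet and genotype differences was not tested.

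Effects of the SP genotype were compared within each diet. On ND, 9 of 10 members were higher in SP than in WT, with a median log2 ratio of 0.19, where the median of all genes tested was 0.09 and 4317 of 6520 genes were above 0. *Nqo1* (0.60, 0.38 to 0.81), *Hmox1* (0.48, 0.26 to 0.70), *Gclm* (0.39, 0.33 to 0.44), *Txnrd1* (0.35, 0.23 to 0.46) and *Gclc* (0.30, 0.19 to 0.40) had intervals above 0, 5 of 10 members, where 32.8% of all genes tested had intervals above 0 and 13.3% below. *Gpx3* was lower (-0.15, -0.17 to -0.14). *Nqo1* alone passed 1.5-fold, and 0 were lower, where 2.68% of all genes passed upward and 1.83% downward. Centring on the median of all genes, keeping S1-S2 cells only, or leaving out an S3 cluster of 82 cells took *Nqo1* under 1.5-fold (0.55 without that cluster).

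On HFD, *Gclc* was higher in SP than in WT by 0.61 (0.47 to 0.74) and alone passed 1.5-fold, where 1.12% of all genes passed upward and 0.368% downward. *Hmox1* (0.54, 0.14 to 0.94), *Gclm* (0.34, 0.27 to 0.42), *Txnrd1* (0.28, 0.10 to 0.45) and *Gsr* (0.15, 0.03 to 0.27) were higher as well, and *Keap1* was lower (-0.32, -0.63 to -0.01), where 17.6% of all genes had intervals above 0 and 7.01% below. *Nfe2l2* did not differ detectably (0.00, -0.26 to 0.26), and *Nqo1* was at -0.12 (-0.47 to 0.22). The median was 0.13, against 0.06 over all genes tested. The S3 cluster of 82 cells held 53 SP-HFD cells and 9 WT-HFD cells, with *Gclc* at 321 and 553 CPM. Without it *Gclc* was at 0.57, under 1.5-fold. The genotype contrasts share their libraries with the diet contrasts, so these are not separate evidence. *Gclm*, *Txnrd1*, *Gclc* and *Hmox1* were the members with intervals above 0 on both diets. Of all genes tested, 32.8% had such intervals on ND and 17.6% on HFD. The share with both was not computed, so this is a list only.

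**Figure D4:**
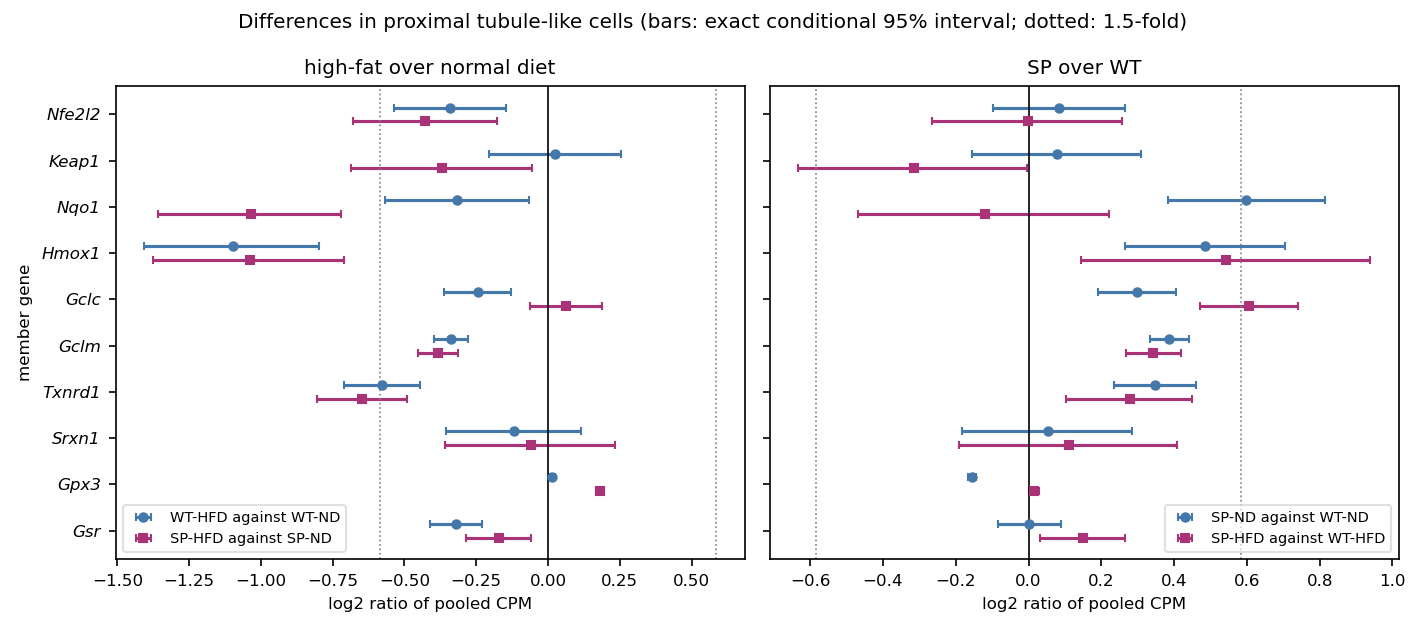
Log2 ratio of pooled CPM (x axis) for each member (y axis) in proximal tubule-like cells, HFD over ND on the left and SP over WT on the right, with exact conditional 95% intervals. Dotted lines mark 1.5-fold. *Hmox1* lies near -1 in both genotypes and *Nqo1* in SP, and on the right *Gclc* reaches 0.61 on HFD.

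Whether the diet differences were seen in other cell classes varied by gene. *Nqo1* was lower on HFD in the distal convoluted tubule of both genotypes. It stood there at 39.2 (ND) and 23.6 (HFD) CPM in WT and at 43.0 (ND) and 22.9 (HFD) CPM in SP, with log2 ratios of -0.73 (-1.17 to -0.30) and -0.91 (-1.32 to -0.50). In that class 9.60% and 8.17% of genes tested had intervals below 0 in WT and SP. In the proximal tubule and distal convoluted tubule, *Nqo1* had intervals below 0 in both genotypes, where 15.7% and 3.12% of all genes tested did. In the other 10 classes it did not. Its point value was below 0 in both genotypes in 9 of 12 classes, and 0 classes had an interval above 0. Some of the other classes held few counts, such as 10 *Nqo1* UMIs in macrophages or dendritic cells over all libraries, which made their intervals wide. *Gsr* was lower in the distal convoluted tubule in both genotypes too (-0.65, -1.02 to -0.28, and -0.50, -0.86 to -0.14). In WT, 1 of the 12 classes had a *Gsr* interval above 0.

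*Gclm* had intervals below 0 in both genotypes in 4 of 12 classes: proximal tubule, thick ascending limb, principal cells and endothelial cells. Of all genes tested, 15.7%, 6.40%, 7.21% and 3.67% did so in these classes. In WT podocytes *Gclm* was higher on HFD (0.33, 0.01 to 0.66). In principal cells it was at 78.4 and 48.5 CPM in WT and at 79.0 and 59.2 CPM in SP. *Txnrd1* had intervals below 0 in both genotypes in proximal tubule, thick ascending limb and principal cells, and an interval above 0 in 1 class in SP. *Gclc*, which in the proximal tubule was lower in WT only, was lower in both in principal and intercalated cells (7.21% and 5.76% of all genes), the latter from 207 to 120 CPM in WT and from 231 to 170 CPM in SP. In WT-HFD intercalated cells the proximal tubule markers stood at 12.2% of their proximal tubule level, and the median log2 diet ratio of all genes there was -0.16. Of all genes tested in this class, 33.7% had diet intervals below 0 in WT and 8.59% in SP. The WT-HFD class held 742 cells, but without integration only 139 (type A) and 128 (type B) WT-HFD cells were named intercalated. For WT-ND these numbers were 533, 247 and 243. Without integration an unnamed cluster held 2815 WT-HFD cells, against 42 of WT-ND, 5 of SP-ND and 29 of SP-HFD. The WT-HFD values of other classes may therefore depend on integration too. The part of these differences in the WT value was not tested. *Hmox1* in macrophages or dendritic cells did not follow the proximal tubule: it was level between diets in WT (173 and 173 CPM) and at 224 and 240 CPM in SP. It was higher in SP than in WT macrophages or dendritic cells on ND (0.37, 0.07 to 0.67) and on HFD (0.47, 0.24 to 0.70).

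**Figure D5:**
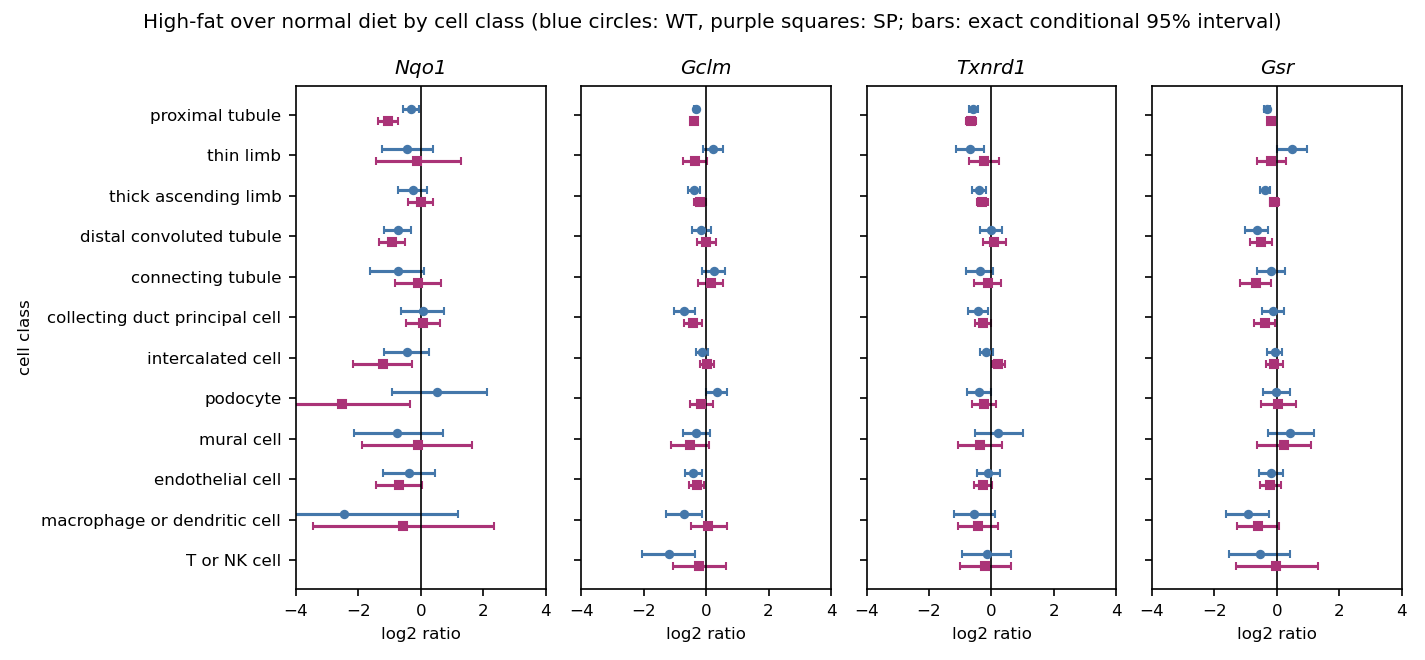
Log2 ratio of HFD to ND (x axis) for *Nqo1*, *Gclm*, *Txnrd1* and *Gsr* in the 12 cell classes (y axis), circles for WT and squares for SP, with exact conditional 95% intervals that run past the axis where counts are few. The intervals of *Nqo1* lie below 0 in both genotypes in the proximal and distal convoluted tubule. Those of *Gclm* do so in the proximal tubule, thick ascending limb, principal and endothelial cells.

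The wider pathway was followed with 74 further genes for glutathione, thioredoxin, peroxide, NADPH, iron and conjugation enzymes, of which 56 passed the filter in proximal tubule-like cells. On HFD 8 were higher and 4 lower past 1.5-fold in WT, and 6 higher and 8 lower in SP, with medians of 0.06 and -0.05. Of all genes tested, 5.18% were higher and 3.47% lower in WT, and 6.67% and 6.06% in SP. The listed genes moved in both directions within families. *Akr1b3*, aldose reductase, which turns glucose to sorbitol, was higher on HFD in both: 47.2 (ND) and 123 (HFD) CPM in WT and 22.1 (ND) and 125 (HFD) CPM in SP, or 1.38 (1.27 to 1.50) and 2.50 (2.32 to 2.69). *Cbr1*, a carbonyl reductase, was lower in both (-0.82, -1.09 to -0.56, in WT, and 36.3 against 12.8 CPM in SP), as was *Sesn2*, a stress-induced regulator of mTORC1 (-0.89, -1.16 to -0.63, and -1.06, -1.48 to -0.66).

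The glutathione S-transferases of this list, which couple glutathione to electrophiles, differed by member, and reads of near-identical copies could be split between them. *Gsta2* was at 11.8 CPM in WT-ND, 47.2 in WT-HFD and 39.3 in SP-ND, which gave log2 ratios of 1.99 for diet in WT and 1.73 for SP over WT on ND. *Gsta3* was lower on HFD in SP (127 to 26.0 CPM, -2.29) and in WT (45.8 to 30.4 CPM, -0.59). On ND it was higher in SP than in WT (1.47). *Gstp1* was lower on HFD in WT (32.2 to 16.1 CPM) and in SP (43.9 to 24.6 CPM). *Txnip*, the inhibitor of thioredoxin, was higher in WT-HFD (1.21) and in SP-ND (1.22) than in WT-ND, where it was at 7.51 CPM. In SP it was level between diets, at 17.5 (ND) and 17.2 (HFD) CPM (-0.03, -0.33 to 0.28). *Osgin1* and *Msrb1*, a methionine sulfoxide reductase, were higher on HFD in SP (1.08 and 0.87) and in WT (0.83 and 0.62).

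Between genotypes, 2.68% of all genes tested were higher and 1.83% lower in SP past 1.5-fold on ND, and 1.12% and 0.368% on HFD. Of the 56 listed genes, 8 were higher and 3 lower in SP-ND than in WT-ND. In SP-HFD 3 were higher and 0 lower than in WT-HFD, and the medians were 0.11 on ND and 0.03 on HFD. On ND, *Akr1b3* (-1.09), *Ggt1*, which breaks down glutathione outside the cell (917 to 545 CPM, -0.75), and *Selenop*, the selenium carrier (2284 to 1421 CPM, -0.68), were the lowest. On HFD, *Gstp1* (0.61), the iron exporter *Slc40a1* (0.61) and *Gstm1* (0.59) were the highest, and *Sesn2* (-0.48), *Selenow* (-0.35) and *Blvra* (-0.26) the lowest, none of these 3 past 1.5-fold.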

How the data were processed

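Per the labels, 10x Genomics 3′ v3.1 libraries were made from kidneys of WT and SP mice. The authors deposited unnormalized UMI counts per gene and barcode. The submitters' processing notes name Cell Ranger 2.1.1 and mm10 and the file headers Cell Ranger 6.1.2; the authors' doublet caller was not used here. Barcodes with 200 to 5000 genes and under 50% mitochondrial UMIs were kept, and 0.8% per 1000 cells was removed by a doublet score. Cells were integrated by canonical correlation (Seurat 5.3.0, 2000 features without the antioxidant genes, 50 dimensions) and clustered at resolution 0.5. Clusters were named from 22 marker lists, a name needing a mean log2 of at least 1, 3 detected markers, no other list with more markers among the 10 leading genes and, where the median depth was under 1/3 of the libraries', a marker among those 10.

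Counts were pooled per class and library, given as CPM with exact Poisson intervals. A ratio was called at 1.5-fold with an exact conditional binomial interval leaving out 1, among genes at a mean of at least 10 CPM. Shares have Clopper-Pearson intervals. With 1 library per condition nothing was tested, and the intervals cover counting error only. The named genes were the 10 members, the 3 highest and 3 lowest of the wider list per contrast, the 3 most alike per member and *Slc5a2*. Members and lists were chosen with earlier results of these data known. Calculations were tested on simulated counts. Of the alternatives, 12 were planned and 3 added after seeing the data. Promoter windows are RefSeq's on GRCm38.p6. For *Txnrd1* and *Gsr*, part of the list of genes with similar profiles is not reported here.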

Additional observations from a re-analysis of the deposited data

How the results depend on the processing

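No paired analysis was possible because each condition had 1 library. Of 600 member ratios recomputed under 15 alternative settings (12 planned, and 3 chosen after seeing the data: the unnamed WT-HFD cluster or the shallow unnamed cluster of 3700 cells counted as proximal tubule-like, and the 82-cell S3 cluster left out), 522 stayed within the interval of the reported value, 78 moved out of it, and 0 of those called past 1.5-fold changed direction. The WT diet count of 1 member became 2 at resolution 1.0, under 30% mitochondrial UMIs, with non-mitochondrial CPM, centred on the median of all genes, after subtracting 10% free RNA, in S1-S2 clusters only, in S3-leaning clusters only, with the unnamed WT-HFD cluster, with the shallow unnamed cluster and as a mean over cells. The mean over cells had no interval, so all its counts used the 1.5-fold ratio alone, a laxer limit than that of the other settings. The SP diet count of 3 stayed within 1.5 times under each setting. The SP-ND against WT-ND count of 1 became 0 when centred, in S1-S2 clusters only and without the 82-cell cluster. The SP-HFD against WT-HFD count of 1 became 2 under 30% mitochondrial UMIs, with 1.6% doublets per 1000 cells removed and in S3-leaning clusters only, 3 as a mean over cells, and 0 when centred, in S1-S2 clusters only and without the 82-cell cluster. The cause was not tested. *Hmox1* stayed lower on HFD under all 15 settings, from -1.48 to -0.65 in WT and from -1.19 to -0.55 in SP, as did *Nqo1* (-0.57 to -0.12 and -1.21 to -0.93) and *Txnrd1* (-0.69 to -0.47 and -0.75 to -0.60). *Nfe2l2* ran from -0.65 to -0.02 in WT and from -0.70 to 0.01 in SP, above 0 under 30% mitochondrial UMIs. *Gclc* was highest in another class, intercalated cells, in 2 of 8 settings, and the highest class of the other 9 members did not change. Non-mitochondrial CPM moved the median of all genes from 0.09 to 0.17 for SP-ND against WT-ND. Low counts, such as 98 to 350 *Hmox1* UMIs per library in proximal tubule-like cells, set the width of the intervals.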

Other observations

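A cluster of 533 cells, 530 of them from WT-HFD, could not be named. Its leading genes included *Ccl28*, *Hsd11b1*, *Dnase1* and *Guca2b*. *Gpx3* was at 4960 CPM there, *Gclm* at 129, *Gsr* at 71.8, *Gclc* at 60.4, *Txnrd1* at 38.5, *Hmox1* at 12.9 and *Nqo1* at 12.7 CPM. The intervals of *Gpx3*, *Gclm*, *Gsr* and *Txnrd1* lay below their WT-HFD proximal tubule-like values of 7989, 232, 105 and 45.8 CPM. Those of *Nfe2l2* (44.6 CPM), *Srxn1* (25.4 CPM) and *Hmox1* lay above theirs, of 23.1, 16.8 and 8.14 CPM. The intervals of *Gclc*, *Nqo1* and *Keap1* (17.5 CPM) held theirs, of 65.8, 14.1 and 18.7 CPM. No other library gave enough cells of this cluster for a value.

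A second unnamed cluster, with *C3*, *Ubd*, *Cp* and *Ccl2* among its leading genes, held 131 and 150 cells of WT (ND and HFD) and 80 and 60 cells of SP. *Gpx3* was at 8678, 7077, 5087 and 5421 CPM and *Txnrd1* at 94.1, 35.8, 73.2 and 45.4 CPM in that order, the latter lower by point value in both HFD libraries. The *Txnrd1* intervals of the diets were apart in WT (77.5 to 113 and 24.9 to 49.8 CPM). In SP they overlapped (56.3 to 93.7 CPM on ND, and 28.1 to 69.3 CPM on HFD, from 21 UMIs). *Gclc* was at 29.6 CPM in WT-HFD and at 29.1 and 30.2 CPM in SP, below the proximal tubule-like cells of those libraries.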
